A study of Mus musculus with 12 samples.

Results

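The fibroblast growth factor (FGF) genes described here were 10 of the 16411 genes in the deposited count table, chosen by name. They comprised the 4 receptors Fgfr1, Fgfr2, Fgfr3 and Fgfr4, the secreted ligands Fgf1, Fgf2, Fgf7 and Fgf10, the intracellular FGF homologue Fgf13, and Fgfbp1, a secreted protein that carries FGFs. The series holds RNA-seq of 6 tumors and 6 benign samples from the mammary glands of MMTV/neu ndl-YD5 females, and the question was how the transcripts of HER2-driven tumors differ from those of benign mammary tissue. All 12 samples carried the same genotype, MMTV-Neu-NDL-YD5 transgenic. These are heterozygous mice on an FVB background in which the MMTV promoter drives an activated neu (HER2) transgene, chiefly in mammary epithelium, with its YD tyrosine site added back. Benign tissue came from mammary glands without a visible tumor, away from the tumor site. The controls therefore were transgenic too, and no mouse was treated. For RNA sequencing the tumors and benign samples came from different mice, and no age is given for each sample.

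FGFs are signaling proteins that bind receptor tyrosine kinases together with heparan sulfate, and the bound receptor acts through the adaptor Frs2 on the RAS-MAPK pathway. In the mammary gland, Fgf10 and Fgf7 are made by mesenchymal and fat cells and act on the epithelial IIIb splice form of Fgfr2, which is needed for the mammary bud and for branching of the ducts. The gene-level counts do not separate the IIIb and IIIc forms of the receptors.

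Total counts ranged from 5240853 to 8170687 in benign samples and from 6111393 to 8588567 in tumors. Levels are given in CPM, counts per 1000000 counts of the TMM-scaled library, with mean ± SD over the 6 samples of a group. Erbb2, the gene of the transgene, went from 56.8 ± 11.2 CPM in benign samples to 7411 ± 5090 CPM in tumors, without overlap. Benign samples 3, 4 and 6 stood apart in skeletal muscle transcripts, whose 11 markers summed to between 36063 and 92492 CPM there against 34.8 to 390 CPM in the other benign samples. Benign sample 1 stood apart in immune markers, which summed to 845 CPM there against 56.1 to 98.0 CPM in the other benign samples. Results on the FGF genes and the named pathway genes are therefore also given without these samples where that ended a call or moved a value by more than 1.5 times.

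Of the 10 FGF genes, 9 passed the filter on low counts. By edgeR's quasi-likelihood test at an adjusted p under 0.1, Fgfr1 was higher in tumors, 6 genes (Fgfr2, Fgfr3, Fgf1, Fgf2, Fgf10 and Fgf13) were lower, and Fgfr4 and Fgf7 were not called. Among all 13191 genes tested, 63% were called, 28.2% higher and 34.8% lower. Tumors lay below every benign sample for 5 of the tested FGF genes and above every benign sample for 1 of them, against 21.2% and 14.7% of all genes tested (35.9% in either direction). Fgf10 passed the filter through benign tissue alone, Fgf13 passed in benign tissue and 1 tumor, and Fgfr3 in benign tissue and 2 tumors, so a count over the genes that passed is a description only.

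**Figure D1:**
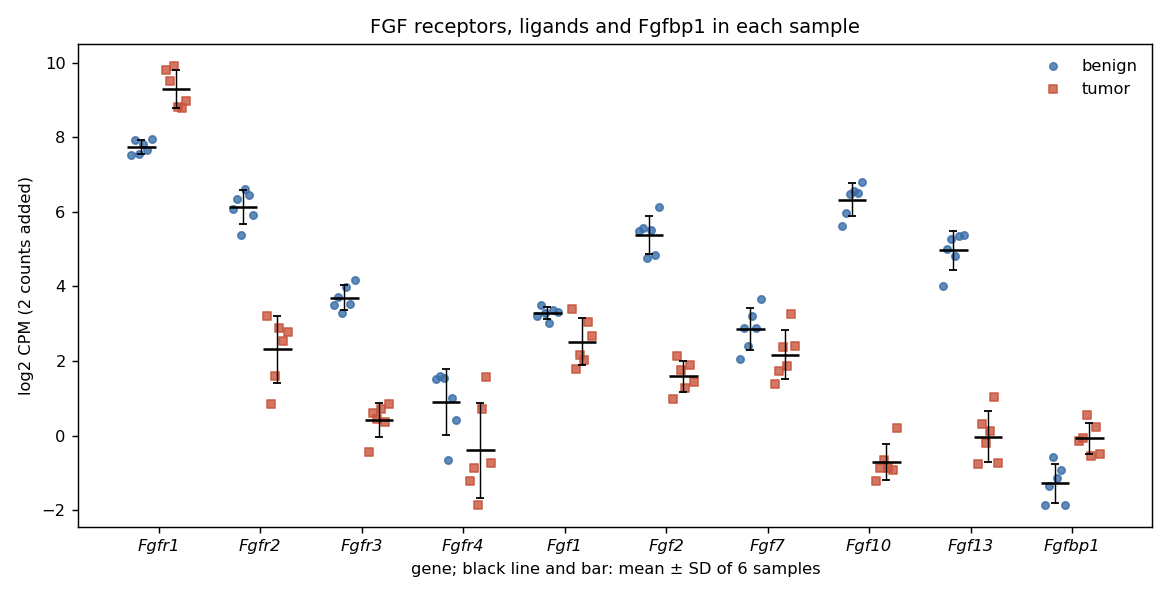
Level of each FGF gene in each sample, as log2 CPM with 2 counts added; circles are benign samples, squares are tumors, and black lines with bars are the mean ± SD of 6 samples. Fgfr1 is the only gene tested whose tumors all lie above the benign samples, the groups of Fgfr2, Fgfr3, Fgf2, Fgf10 and Fgf13 are apart in the other direction, and Fgfbp1 lies near the floor in both groups.

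Promoter windows are shown for Fgf10, Fgf2 and Fgfr2, the secreted ligands and the receptor with the largest falls. Each holds 250 bases before and 50 bases after an annotated start in RefSeq GRCm38.p6, 5′ to 3′ on the gene's strand. The Fgf10 and Fgfr2 windows sit at the outer end of the gene span given below, the Fgf2 window at a start inside it. At least 1 such window was found for 8 of the 10 FGF genes. Capitals mark CAGGAAG, letters that contain the core bound by ETS factors, and GGGCGG, the GC box, each searched on both strands.
Fgf10: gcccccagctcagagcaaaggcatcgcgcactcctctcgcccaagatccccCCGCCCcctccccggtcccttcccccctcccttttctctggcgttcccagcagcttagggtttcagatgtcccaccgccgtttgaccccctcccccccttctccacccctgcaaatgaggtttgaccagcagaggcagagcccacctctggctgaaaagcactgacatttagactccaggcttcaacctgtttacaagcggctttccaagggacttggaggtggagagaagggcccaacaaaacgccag
Fgf2: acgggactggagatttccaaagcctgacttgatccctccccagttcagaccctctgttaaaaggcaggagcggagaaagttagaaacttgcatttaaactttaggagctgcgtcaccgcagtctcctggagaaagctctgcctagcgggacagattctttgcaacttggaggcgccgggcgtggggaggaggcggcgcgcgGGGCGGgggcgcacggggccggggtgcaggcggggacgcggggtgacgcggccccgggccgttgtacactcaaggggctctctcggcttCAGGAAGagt
Fgfr2: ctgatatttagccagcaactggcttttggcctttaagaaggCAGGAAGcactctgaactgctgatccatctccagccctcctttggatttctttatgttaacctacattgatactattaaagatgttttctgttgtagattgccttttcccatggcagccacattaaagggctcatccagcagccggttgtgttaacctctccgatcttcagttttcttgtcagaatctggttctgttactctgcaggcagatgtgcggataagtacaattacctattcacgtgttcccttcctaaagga
The Fgf10 window lies at chr13:118714449-118714748 on the plus strand, the Fgf2 window at chr3:37348403-37348702 on the plus strand and the Fgfr2 window at chr7:130266759-130267058 on the minus strand. CAGGAAG occurred once in the Fgf2 and once in the Fgfr2 window, and 13.3% of 32851 promoters of this length held it. GGGCGG occurred once in the Fgf2 and, on the opposite strand, once in the Fgf10 window, against 35.7% of promoters, and the motifs did not overlap. The windows differed in base composition: Fgf2 held 24 CpG sites and Fgf10 held 10, where the Fgfr2 window held 4 and the median of all promoters was 7. These matches describe the letters of the windows and say nothing on whether a factor binds there.

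Fgfr1, the receptor of mesenchymal and many epithelial cells, rose in tumors. Its gene lies on chromosome 8 from 25518759 to 25575718 (GRCm38.p6, plus strand). Benign samples held 184 CPM at the lowest, 214 at the median and 246 at the highest, and tumors held 441, 612 and 964 CPM. The lowest tumor was thus above the highest benign sample, and the tumors varied more, with a coefficient of variation of 34.9% against 12.7%. The ratio of means was 3.09, a log2 fold change of 1.63 (standard error 0.22, edgeR adjusted p = 3.6e-05). The exact permutation p was 0.00216, the smallest that 924 regroupings can give. This log2 fold change was 1.71 without benign samples 3, 4 and 6.

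Fgfr2, whose IIIb form acts in the ductal epithelium, fell in all 6 tumors. Which splice form and which cells its reads came from was not tested. The Fgfr2 gene spans 130162451 to 130266808 on chromosome 7 (minus strand). Benign samples held 41.3, 73.9 and 98.0 CPM at the lowest, median and highest, and tumors 1.51, 6.04 and 9.03 CPM, so the highest tumor was far under the lowest benign sample. Mean levels were 72.5 ± 20.6 and 5.42 ± 2.82 CPM, a 13.4-fold difference or -3.74 on the log2 scale (standard error 0.37, edgeR adjusted p = 2.6e-06). Tumors 2 and 3 had the lowest values, with 1.51 and 2.77 CPM. In GENCODE M21, exons of Ctbp2 overlap exons of Fgfr2 on the same strand, so reads there could be assigned to either gene.

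Fgfr3, a receptor best known for restraining bone growth, also fell. It lies on chromosome 5 from 33721724 to 33737068 (plus strand). Its level was 9.50 to 17.8 CPM in benign tissue (median 12.1) and 0.467 to 1.54 CPM in tumors (median 1.16), without overlap. This came to -3.51 on the log2 scale (standard error 0.27, edgeR adjusted p = 3.0e-07). Tumor libraries held 3 to 14 reads of this gene each, so differences among the tumors rest on few reads.

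Fgfr4, the receptor of endocrine FGFs in liver, was the least abundant of the receptors in benign tissue and was not called. Its gene lies on chromosome 13 from 55152818 to 55168759 (plus strand). Benign samples ranged from 0.356 to 2.75 CPM (median 2.17) and tumors from 0 to 2.69 CPM (median 0.302). The groups overlapped because tumors 4 and 5 held 1.35 and 2.69 CPM while benign sample 4 held 0.356 CPM, and 4 tumors lay under every benign sample in CPM. Those 4 tumors held 0 to 3 reads and benign sample 4 held 2, all within the floor of 3 reads, so their order is uncertain. With a log2 fold change of -1.21 and a standard error of 0.75, edgeR's adjusted p was 0.187, and the exact permutation p was 0.0714. Without tumor 5 it was -2.06 (adjusted p = 0.028), a call that rests on leaving out that library.

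Together the receptors took a larger part of the libraries in tumors, with summed levels of 241 to 342 CPM in benign tissue and 450 to 967 CPM in tumors, and their make-up differed. The share of each receptor was computed within each sample from counts per kilobase of its longest coding transcript, which does not depend on the scaling between samples. Fgfr1 made up 67.8% ± 4.94 of this pool in benign tissue and 98.4% ± 0.97 in tumors (SD, n = 6 per group, exact permutation p = 0.00216). Fgfr2 made up 26.4% ± 5.44 in benign tissue and 1.08% ± 0.65 in tumors, and Fgfr3 4.84% ± 0.75 and 0.228% ± 0.118. For these 3 receptors the groups did not overlap, and the Benjamini-Hochberg adjusted p over the 4 shares was 0.00289 by the exact permutation test. The 4 shares of a sample add up to 100%, so they are not independent of each other. The shares of Fgfr1, Fgfr2 and Fgfr3 also follow from their levels above, so their p-values are not further evidence.

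The share of Fgfr4 was 0.939% ± 0.557 in benign tissue and 0.254% ± 0.355 in tumors (n = 6 per group, adjusted exact permutation p = 0.0303), and the groups overlapped. That difference of -0.685 percentage points passed 0.05 no longer when benign sample 1, 2 or 3 or tumor 1, 2, 3 or 6 was left out (exact permutation p 0.052 to 0.063), and it was -1.31 points with merged exons as the length. Fgfr1, the largest part of the pool, rose in tumors, so the share of Fgfr4 would fall even at an unchanged level of Fgfr4. The p-value of this share is thus not evidence that the level of Fgfr4, which was not called, fell. The ratio of Fgfr2 to Fgfr1 counts, on a log2 scale with 0.5 counts added, was -1.61 ± 0.41 in benign tissue and -7.06 ± 1.24 in tumors, a difference of -5.46 (n = 6 per group, exact permutation p = 0.00216). Its range was -2.18 to -1.18 in benign tissue and -8.84 to -5.97 in tumors, so every sample of a group was on its own side of a wide gap. With Fgfr1 higher and Fgfr2 lower in every tumor than in every benign sample, the groups had to part on this ratio. Its p-value thus restates the single-gene results. Tumors 2 and 3, with the lowest Fgfr2 levels, had the lowest ratios.

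**Figure D2:**
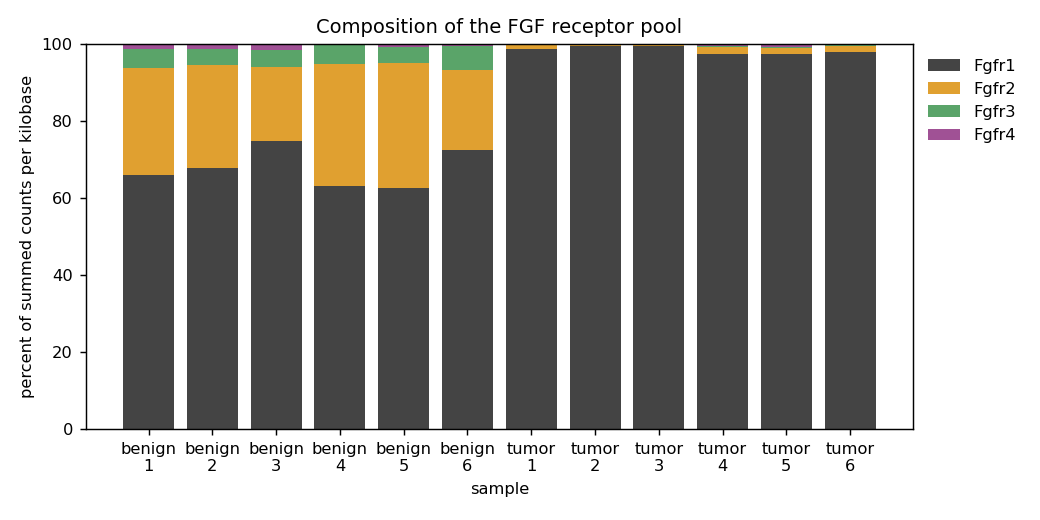
Share of each FGF receptor in the summed receptor counts per kilobase, in percent, with 1 bar per sample. Fgfr1 takes 62.7% to 74.7% of each benign bar and 97.4% to 99.5% of each tumor bar, and the Fgfr2 segment shrinks from a mean of 26.4% to 1.08%.

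Among the ligands, Fgf10, the mesenchymal growth factor that acts through Fgfr2 on epithelium, showed the largest fall. Its gene lies on chromosome 13 from 118714699 to 118792573 (plus strand). Benign samples held 48.5, 89.4 and 112 CPM at the lowest, median and highest, and tumors 0.156, 0.273 and 0.878 CPM. Every tumor lay under every benign sample by a wide margin, since 3339 reads over the benign libraries faced 18 over the tumor libraries. The ratio of means was 226, the ratio of the summed counts was 207 (95% counting interval 131 to 350), and edgeR's log2 fold change was -7.69 (standard error 0.34, with an adjusted p of 4.3e-09). This interval covers counting error only.

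Fgf7, or keratinocyte growth factor, binds the same IIIb form of Fgfr2 and was not called. It lies on chromosome 2 from 126034658 to 126091185 (plus strand). Benign samples held 3.89 to 12.4 CPM (median 7.14) and tumors 2.33 to 9.33 CPM (median 4.15), and 3 tumors lay under every benign sample. Its log2 fold change of -0.66 had a standard error of 0.36, an adjusted p of 0.139 by edgeR and an exact permutation p of 0.0931. It was -0.35 without benign samples 3, 4 and 6, and -0.91 (adjusted p = 0.029) without tumor 5, the tumor with the highest level, and it was also called without benign sample 1 (-0.74, adjusted p = 0.095).

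The contrast between these ligands of the same receptor form was tested within samples. The log2 ratio of Fgf10 to Fgf7 counts was 3.51 ± 0.37 in benign tissue and -3.46 ± 0.79 in tumors, a difference of -6.97 (n = 6 per group, exact permutation p = 0.00216). In benign tissue Fgf10 exceeded Fgf7 in every sample, with ratios on that scale of 3.11 to 4.12, whereas in tumors Fgf7 exceeded Fgf10 in every sample, with -4.88 to -2.45. The genes differ in length, which cancels in the difference between groups. Since Fgf10 lay apart between the groups and Fgf7 was not called, this ratio mainly restates the fall of Fgf10.

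**Figure D3:**
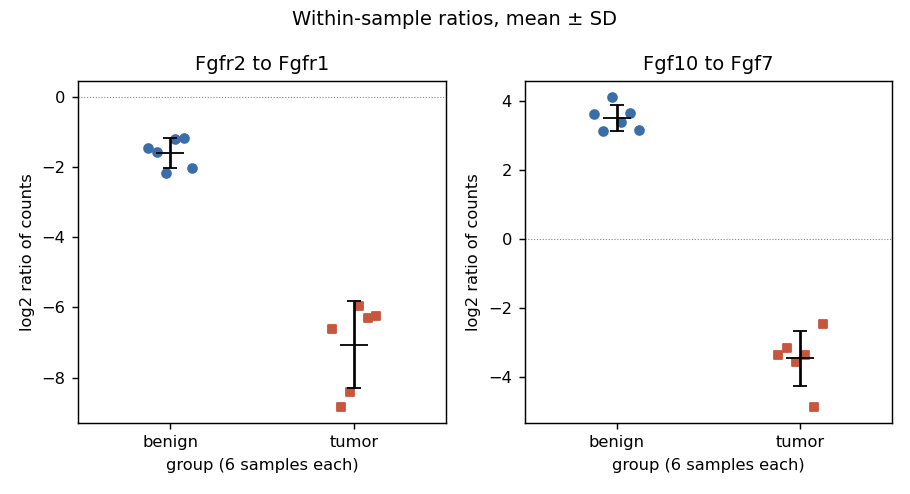
Log2 ratio of counts within each sample (0.5 counts added), for Fgfr2 over Fgfr1 on the left and Fgf10 over Fgf7 on the right, with the mean ± SD of 6 samples per group. The Fgf10 to Fgf7 ratio moves from above 0 in every benign sample to below 0 in every tumor, and the Fgfr2 to Fgfr1 ratio drops from a mean of -1.61 to -7.06.

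Fgf2, or basic FGF, a ligand of endothelial and stromal cells that leaves cells without a signal peptide, fell as well. Its gene lies on chromosome 3 from 37348477 to 37410106 (plus strand). Benign levels were 26.8 to 69.9 CPM (median 45.0) and tumor levels 1.71 to 4.13 CPM (median 2.77), with no overlap. Mean levels differed 15.4-fold, or -3.93 on the log2 scale (standard error 0.29, edgeR adjusted p = 1.7e-07). Gm43439 overlaps exons of Fgf2 on the same strand, so reads there could be assigned to either gene. Nudt6 overlaps exons of Fgf2 on the opposite strand, and other antisense models overlap exons of Fgf10, Fgfr1 and Fgfr3. The library kit kept strand, but whether the counting used it is not given in the sources used here, so reads of such partners may not be separated.

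Fgf1, or acidic FGF, which binds all FGF receptors and is induced in fat by feeding, was lower in tumors by a small margin. It lies on chromosome 18 from 38838672 to 38929470 (minus strand). Benign samples held 7.84 to 11.1 CPM (median 9.54) and tumors 3.16 to 10.3 CPM (median 5.12). The groups overlapped, since tumors 1 and 5 held 10.3 and 8.06 CPM while the other 4 tumors lay under every benign sample. A log2 fold change of -0.69 with a standard error of 0.28 gave an adjusted p of 0.051 by edgeR and an exact permutation p of 0.0238. The call was lost when benign sample 2 or tumor 2, 3, 4 or 6 was left out (adjusted p 0.107 to 0.147), with total counts as the scale, at a threshold of 0.05, and without benign samples 3, 4 and 6 (log2 fold change -0.73, adjusted p = 0.132).

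Fgf13 is not secreted. It binds voltage-gated sodium channels and microtubules inside cells. Its gene lies on chromosome X from 59062139 to 59585572 (minus strand). Benign samples held 15.7 to 41.2 CPM (median 35.0) and tumors 0.311 to 1.79 CPM (median 0.706), without overlap. Means differed 40.7-fold, or -5.32 on the log2 scale (standard error 0.40, edgeR adjusted p = 2.2e-07). The lowest benign sample was sample 1, with 15.7 CPM, and the highest tumor was tumor 5, with 1.79 CPM.

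Fgfbp1, which releases FGFs from the matrix, lay below the filter and was near the detection floor in both groups. It lies on chromosome 5 from 43978858 to 43981828 (minus strand). All benign libraries held at most 3 reads of it, which is the floor used here, and tumor libraries held 3 to 10 reads. Summed over the groups, 7 reads faced 33, a ratio of 4.22 after scaling to library size (95% counting interval 1.84 to 11.3, counting error only). Each tumor lay above each benign sample, with 0.405 to 1.20 CPM against 0 to 0.396 CPM (n = 6 per group, exact permutation p = 0.00216), but the highest benign and the lowest tumor value each rest on 3 reads.

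The 4 secreted ligands Fgf1, Fgf2, Fgf7 and Fgf10 summed to 106 to 204 CPM in benign tissue and to 9.58 to 21.1 CPM in tumors, while the receptors summed higher in tumors. Levels per kilobase, which allow genes to be set side by side, gave a different order in each group. In benign tissue Fgfr1 came first with 42.5 ± 5.42 CPM per kilobase, apart from the rest, followed by Fgf10 (20.1), Fgfr2 (16.8), Fgf13 (13.0) and Fgf2 (7.31), whose neighbours in the order overlapped. Fgfr3 (3.06), Fgf7 (2.78) and Fgf1 (2.39) followed and overlapped, and Fgfr4 (0.559) and Fgfbp1 (0.072) came last. In tumors Fgfr1 stood at 131 ± 45.8 CPM per kilobase, and the next gene was Fgf7 with 1.75 ± 0.94. All later neighbours overlapped, down to Fgf10 with 0.089 CPM per kilobase, so Fgf10 went from the second to the last place in the order.

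The genes whose pattern over the 12 samples was most like each FGF gene were found by the root mean square difference of log2 CPM centred on each gene's mean, among 13190 other genes. These samples share the tumor and benign groups, so a gene with a like difference between the groups comes out as near. Nearest to Fgfr1 were Sdc2 (0.28), Ephb4 (0.28) and Atxn1 (0.28). For Fgfr2 they were Adcy5 (0.48), Arxes1 (0.50) and Btnl9 (0.53), and for Fgfr3 Rasa4 (0.24), Nova2 (0.26) and Parp3 (0.26). Fgf10 was most like Trarg1 (0.34), Aoc3 (0.37) and Abcd2 (0.40). Fgf2 was most like Adcy4 (0.28), C1s1 (0.29) and Adgrf5 (0.29), and Fgf13 most like Twist1 (0.37), Syp (0.44) and Sgcd (0.45). Nearest to Fgf1 were Gpld1, Tspan6 and Tm7sf2 (0.25 to 0.29), and nearest to Fgf7 were Prox2, Ccs and Smad6 (0.28 to 0.36). Fgfr4 had the largest of these nearest distances, its closest being Tgif2 at 0.59, with Chadl and Pde4c after it. A distance is to be read beside the gene's own root mean square about its mean, which includes the difference between groups. That spread was 0.57 for Fgf1, 0.66 for Fgf7, 1.20 for Fgfr4 and 3.54 for Fgf10. Beside it, Fgf10 was matched more closely than Fgf1, Fgf7 or Fgfr4.

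Markers of several cell types moved with these genes. Among all genes tested, 28.2% were called higher and 34.8% lower. All 7 adipocyte markers were called lower, with sums of 7302 to 16871 CPM in benign tissue and 8.53 to 89.7 CPM in tumors, and all 7 fibroblast markers were lower (4621 to 12588 against 511 to 1210 CPM). The 7 basal and myoepithelial markers were all lower too (700 to 1556 against 31.9 to 111 CPM), as were the 5 endothelial markers (505 to 937 against 74.8 to 90.2 CPM). Of the 7 epithelial markers, 6 were higher and Krt19 was lower, and their sum was 884 to 2402 CPM in benign tissue and 2617 to 4340 CPM in tumors. In bulk tissue, fewer cells of a type and less RNA per cell cannot be told apart, and the part of these cell types in the FGF results was not tested. No marker of the fixed lists was at 0 in all samples of a group.

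Other marker lists moved less evenly. Of the skeletal muscle markers 6 of 6 tested were lower (34.8 to 92492 against 1.20 to 158 CPM), as were 3 of 3 brown fat markers tested. The muscle sums overlapped between the groups. Benign samples 3, 4 and 6 held 36063 to 92492 CPM and the other benign samples 34.8 to 390 CPM. Benign samples 4 and 6 carried the brown fat sum, with 2955 and 807 CPM. The other benign samples held 31.3 to 178 CPM and the tumors 3.30 to 20.1 CPM. Ucp1 ranged from 0 to 1434 CPM in benign samples and overlapped the tumors. Of 7 nerve and Schwann cell markers Sox10 and S100b were higher and 3 were lower, and of 4 immune markers tested Ptprc and Cd68 were lower. Ptprc held 399 CPM in benign sample 1 and at most 20.6 CPM in the other benign samples, and without that sample its log2 fold change went from -2.05 to 0.15 (adjusted p = 0.581 by edgeR) and it was no longer called. Krt10 was the only keratinocyte marker tested and was not called.

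**Figure D4:**
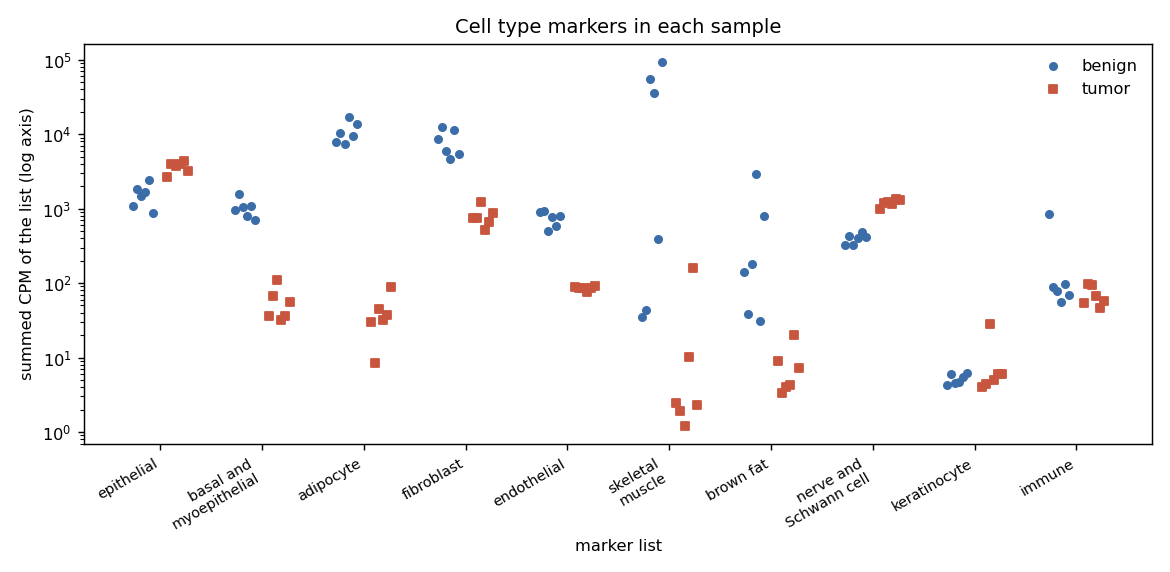
Summed CPM of each list of cell type markers in each sample, on a log axis; circles are benign samples and squares are tumors. Adipocyte sums drop from at least 7302 to at most 89.7 CPM, epithelial sums lie higher in tumors, and skeletal muscle sums split the benign samples.

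The other genes of the pathway were taken from 9 lists of 94 genes, of which 80 were in the table and 62 passed the filter. Of these 62, 27 were higher, 19 were lower and 16 were not called. Among all 13191 genes tested, 28.2% were called higher and 34.8% lower, the shares to set beside this count and each list count below. Klb and Scn2a passed the filter through benign tissue alone, so these counts are a description only. Among the other FGF ligands, 12 were in the table and only Fgf11, another intracellular homologue, passed the filter, from a mean of 15.4 CPM in benign samples to 2.07 CPM in the tumors, or -2.88 on the log2 scale. Fgf14, an intracellular homologue of the brain, held 55 reads over the benign libraries and 0 over the tumors, at least 20.5-fold lower at a floor of 3 counts over the group. Fgf16, a ligand known from brown fat, held 28 reads against 1, a ratio of 31.3 (95% counting interval 5.17 to 1278, counting error only). Among the ligands below the filter, Fgf9 and Fgf20 had higher means in tumors, with overlap, and the others had lower means. Fgf9 held a mean of 0.703 CPM in benign samples and 1.35 CPM in tumors.

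Of the 4 co-receptors and receptor-like proteins tested, 1 was higher, 2 were lower and 1 was not called, with a median log2 fold change of -1.35 against -0.062 over all genes tested. Klb, the co-receptor of endocrine FGFs in fat and liver, held 1160 reads in benign tissue and 2 in tumors, a ratio of 647 (95% counting interval 179 to 5352). Flrt2 fell by 2.61 on the log2 scale, while Flrt3 rose by 2.42 (both are membrane proteins that bind FGF receptors). Fgfrl1, a receptor without a kinase domain, had a log2 fold change of -0.09 (standard error 0.17) and was not called.

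Of the 11 heparan sulfate proteoglycans tested, 4 were higher, 4 were lower and 3 were not called (median log2 fold change -0.14). The cell-surface syndecans Sdc4 (2.04), Sdc3 (1.46) and Sdc2 (1.45) showed the largest rises in log2 fold change. For Sdc4 and Sdc2 every tumor lay above every benign sample. The lowest tumor for Sdc3 held 36.8 CPM, under every benign sample (94.1 to 132 CPM). The falls were largest for Hspg2, the basement membrane proteoglycan perlecan (-3.01), Gpc3 (-2.62) and Gpc1 (-2.41, or -1.60 without benign samples 3, 4 and 6), which are glypicans. Of the 18 enzymes of heparan sulfate tested, 8 were higher, 5 were lower and 5 were not called (median 0.079). The 3-O-sulfotransferases Hs3st3a1 (3.77), Hs3st3b1 (3.55) and Hs3st1 (3.12) rose, and since the first 2 are near-identical paralogs their counts are uncertain. For Hs3st3a1 the groups overlapped, with 2.09 to 125 CPM in tumors and 1.07 to 4.62 CPM in benign samples. Hpse, or heparanase (-2.62), Hs3st6 (-2.32) and Sulf1, which removes 6-O-sulfate (-2.06), fell. Sulf2, which has the same activity, rose by 1.44 on that scale, from a mean of 169 CPM to 459 CPM, with every tumor above every benign sample.

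Of the 13 adaptors tested, 2 were higher, 4 were lower and 7 were not called, with a median log2 fold change of -0.080. Frs2, the docking protein of FGF receptors, rose by 0.87, and Sos2, a RAS activator, rose by 0.48 (0.82 without benign samples 3, 4 and 6). Gab2 (-0.79), Frs3 (-0.65) and Ptpn11 (-0.44) fell. The calls of Frs3 and Ptpn11 were lost without benign samples 3, 4 and 6, where the value of Ptpn11 was -0.12, and that of Ptpn11 also without tumor 6.

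Of the 8 feedback inhibitors tested, 6 were higher and 2 were lower (median log2 fold change 1.48), and all 3 ETS factors were higher (median 3.83). Dusp6, a phosphatase of ERK (3.65), Spred3 (1.93) and Spry2 (1.63) rose, and so did Etv1 (6.02), Etv5 (3.83) and Etv4 (1.97). Il17rd, an inhibitor also called Sef, fell (-1.08), and Spry1 was lower (-0.58) in a call that was lost in 8 other fits and at a threshold of 0.05, and moved to -0.36 without tumor 1. Dusp6 and Etv1 were named in the study from these samples, so their rises are not independent evidence of a direction, and these genes also respond to HER2 and other receptors of the same pathway. Esrp1 (1.85) and Esrp2 (1.77), splicing regulators that favour the epithelial IIIb forms of FGF receptors, were both higher. Scn2a, a neuronal sodium channel, fell (-3.14, or -2.03 without benign samples 3, 4 and 6).

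**Figure D5:**
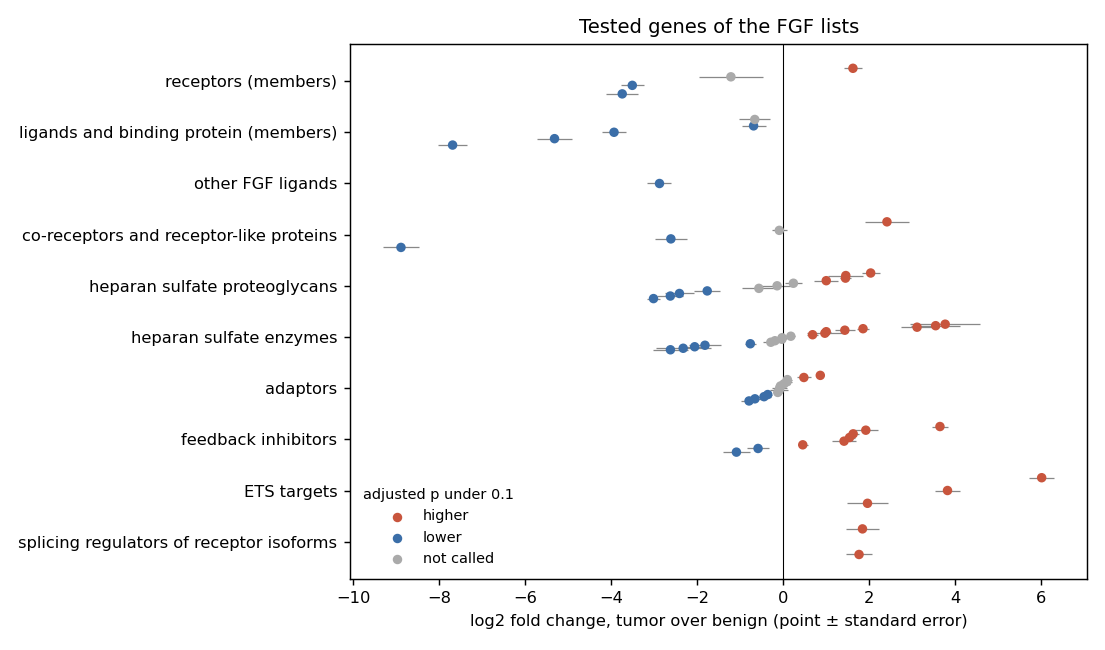
Log2 fold change of tumors over benign tissue for each tested gene of the FGF lists other than the sodium channels, with its standard error; colors mark genes called higher, called lower or not called at an adjusted p under 0.1 by edgeR. ETS factors and splicing regulators lie to the right, the called ligands among the 10 FGF genes lie to the left, and the 13 adaptors lie between -0.79 and 0.87, with 7 of them not called.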

How the data were processed

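RNA of 6 tumors and 6 benign samples was enriched for poly A, prepared with a directional kit and sequenced in pairs. Per the labels and the study's methods, the authors used Trim Galore, Salmon and DESeq2 with build mm10; versions and annotation are not given in the sources used here. The deposited values are the authors' estimated counts by gene, given in whole numbers without scaling for depth, and all sample columns were used (0 left unused).

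Groups came from the sample labels. The counts were filtered with filterByExpr (minimum count 10, minimum total 15), scaled by TMM and compared by a two-sided quasi-likelihood test (edgeR 4.0.16, R 4.3.3), and p-values were adjusted after Benjamini and Hochberg over 13191 genes. The common biological coefficient of variation was 0.351. The floor of 3 counts equals 0.409 CPM in a library of mean size. Every pair of replicates was further apart than sampling noise (chi-square over its degrees of freedom at least 12.5 for benign samples and 16.4 for tumors). Shares, ratios and single genes were compared by exact permutation over 924 regroupings, two-sided. Counting intervals were exact binomial intervals from scipy 1.17.1, on reads summed over a group. They cover counting error only and not the spread among mice. Lengths and exon overlaps came from GENCODE M21, and coordinates and promoters from RefSeq GRCm38.p6.

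The FGF genes and the lists were chosen with earlier results of these data known. All 10 FGF genes are named; of each pathway list, up to 3 called genes with the largest rise and up to 3 with the largest fall are named, and for likeness the 3 nearest genes. Fgfrl1, Fgf9, Fgf14, Fgf16, Fgf20 and Sulf2, and Scn4a in the closing observations, were named outside this rule after their values were seen. A gene that this rule would name is not reported here.

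On simulated counts for this comparison (200 changed genes among 13119), edgeR recovered 58% of genes changed by a log2 of 1 and 100% of those changed by 2, and 8.14% of its calls were false. DESeq2 1.42.0 recovered 65% and 100%, with 26.0% false. The simulation changed far fewer genes than the 63% called in the data, so these rates need not hold for the data. Alternatives were DESeq2, upper-quartile scaling, total counts, 2 other filters, a stricter threshold (0.05), a block for the replicate number, single samples left out, another pseudocount and other length rules. Leaving out benign samples 3, 4 and 6 and using merged exons as length were added after seeing the data.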

Additional observations from a re-analysis of the deposited data

Results flagged for a closer look

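The level of Fgf10 in tumor 6 was 0.878 CPM, apart from the other tumors, which held 0.156 to 0.361 CPM. Its gap to the nearest tumor was 0.716 of the whole range, above Dixon's critical value at 95% for 6 samples. The value rests on 8 reads in that library, and it lies far below the lowest benign sample (48.5 CPM). This was 1 of 32 sets of 6 samples examined, and chance alone gives such a gap in about 1 of 20 sets.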

How the results depend on the processing

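Over 711 recomputed values, 671 kept their direction and their side of the threshold or stayed near the main value, 14 lost a call, 4 gained one, 22 counts or values moved and 0 reversed. When genes with 1 count or more in total were kept, 2 FGF genes were higher, since Fgfbp1 was then tested. With at least 10 counts in every sample, only 5 FGF genes were tested and 3 were lower, and 12 of the pathway genes were lower among 52 tested. Fgf1 lost its call with total counts (-0.59) and without benign samples 3, 4 and 6 (-0.73). Leaving out single samples gave a log2 fold change of -0.85 to -0.49 for Fgf1, -0.91 to -0.45 for Fgf7 and -2.06 to -0.88 for Fgfr4, and a difference in the share of Fgfr4 of -0.84 to -0.55 percentage points; the FGF genes lower were 5 to 8. The cause of these changes was not tested.

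The tumors and benign samples came from different mice and share only a number: same-numbered deviations correlated between -0.124 and 0.103, and no sample matched its own number best. With the replicate number as a block, 7710 genes were called against 8314 without it, Fgf7 was called (-0.71, adjusted p = 0.094 by edgeR) and no other call among the FGF genes changed. Low counts limit Fgfbp1, Fgfr4 and the tumor values of Fgf10, Fgf13 and Fgfr3.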

Other observations

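Levels of Fgfr1 differed within the tumors: tumors 1, 2 and 3 held 891, 725 and 964 CPM, and tumors 4, 5 and 6 held 451, 441 and 499 CPM. Scn4a, the sodium channel of skeletal muscle and a possible partner of FGF homologues, lay below the filter. It held 123, 60.0 and 186 CPM in benign samples 3, 4 and 6, which hold skeletal muscle transcripts, 0.478 to 4.26 CPM in the other benign samples and 0 to 0.384 CPM in tumors. Over all benign samples 2353 reads faced 5 in tumors, a ratio of 525 (95% counting interval 225 to 1619), and without benign samples 3, 4 and 6 the ratio was 14.9 (5.80 to 48.6).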
